A study of Mus musculus with 8 samples.

Results

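The comparison described here follows a single leukaemia line, in which both copies of Cdc73 are flanked by loxP sites, from 24 to 48 h after 4-hydroxytamoxifen (4OHT) was added. It asks which transcripts moved between the earlier and the later time in the line that loses Cdc73. Its members are the genes at 1 FPKM or more at either time, which were 10899 of the 23334 genes in the table once 27 rows whose symbols had turned into date numbers were left out. FPKM scales the fragments of a transcript by its length and by the size of the library, so it is a level relative to all other RNA in the library. Of the members, 10232 were at 1 FPKM or more at both times, 422 were below it at 24 h and 245 were below it at 48 h.

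The study compared 4 groups of 2 libraries from established cell lines grown from 129S6 mouse bone marrow and transformed with the MLL-AF9 fusion oncogene. The floxed line is labelled Cdc73fl/fl CreERT2, and its companion, with wild type Cdc73, is labelled Cdc73 +/+ CreERT2. Both lines received 7.5 nM 4OHT, and each was sampled at 24 h and at 48 h during growth with interleukin 3. CreER is the Cre recombinase fused to an oestrogen receptor domain that 4OHT activates, so the wild type line was exposed to 4OHT and CreER as well. An untreated library of either line was not analysed here, and the floxed and wild type lines are different lines, so a property of a line and the effect of its genotype cannot be told apart. The labels call the 2 libraries of a group biological duplicates, and the deposited table gives 1 value per group in which they are already combined. No error, test or p-value can therefore be given, and all that follows describes the size of differences between pooled values.

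Cdc73, also called parafibromin, belongs to the PAF1 complex, an elongation factor that rides on RNA polymerase II and is needed for several histone marks laid down during transcription. MLL fusion proteins bind this complex through the part of MLL that they keep, and it helps them to hold genes such as the Hoxa cluster and Meis1 in an active state. Leukaemias driven by MLL-AF9 resemble granulocyte and monocyte progenitors that fail to mature, and release from that state is commonly read from granule, surface receptor and lysosome genes.

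The targeted gene was already low at the first time. Cdc73 (chr1:143598800-143702893, minus strand, GRCm38) stood at 5.96 FPKM at 24 h and 5.45 FPKM at 48 h in floxed cells, against 26.2 and 26.9 FPKM in wild type cells. Its level was thus already below the wild type line when the interval began, and it was nearly the same at its end. Cdc73 shares its locus entry with another gene, so its level is uncertain. In such shared entries, reads may have been divided unevenly between overlapping genes. They hold 2186 of the members, and genes in them are marked as shared below. Depth per library is not given. Among genes above 0 and below 0.05 FPKM at both times, the most frequent ratio of 48 h to 24 h was taken. It was 1.27 in floxed cells, held by 72 of 1338 such genes, against 0.990 in wild type cells. Whether this ratio is the relative worth of 1 fragment cannot be told from pooled values. The summed FPKM of all 23334 genes in floxed cells was 656123 at 24 h and 698597 at 48 h. The part that these differences play in the changes below was not tested.

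Changes are given as log2((48 h + 1)/(24 h + 1)) of the FPKM values, a scale that understates the change of low genes. A gene is said to have risen or fallen only where this change was at least 1 in size, which is 2-fold on that scale. Folds are plain ratios of FPKM and are given only where both values reach 1 FPKM. In floxed cells 536 members rose, or 4.92%, and 153 fell, or 1.4%. In the wild type line the same genes gave 28 rises (0.257%) and 45 falls (0.413%). Rises thus made up 77.8% of the changes of this size in floxed cells. That share was 66.8% when both columns were brought to the same sum, 87.8% when the median ratio was set to 1 and 81.0% after quantile normalization.

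Small RNA genes gave many of these changes. Among 181 members that are microRNA, small nucleolar RNA or similar genes, 51 rose and 56 fell, and 77 were listed at 0 at one of the times. The same genes also moved in wild type cells, with 28 rises and 23 falls. Poly(A) libraries and length scaling measure such short RNAs poorly, so they were set aside after their values had been seen. The remaining 10718 genes held 485 rises (4.53%) and 97 falls (0.905%), while wild type cells had 0 rises (0.0%) and 22 falls (0.205%). The floxed shares belong beside the counts of each list below, where 0 falls in a short list is near the share of falls. Rises of at least 4-fold on the same scale numbered 49, and the only fall of that size was the shared gene Amd1, which also fell in wild type cells.

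The whole distribution was wider in the floxed line. The median size of change without regard to sign was 0.33 over all members in floxed cells and 0.06 in wild type cells. Changes of less than 0.5 in size made up 69.0% of members in floxed cells and 97.9% in wild type cells. The centre of the floxed distribution was slightly below 0, at a median of -0.08, and 4741 members (43.5%) lay above 0. The median level of the 485 genes that rose was 4.96 FPKM at 24 h and 14.4 FPKM at 48 h, and that of the 97 genes that fell was 20.8 and 9.36 FPKM. Both levels enter the change that chose these genes, and 145 of all 536 rises are members only through their 48 h level, so these medians are description.

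**Figure D1:**
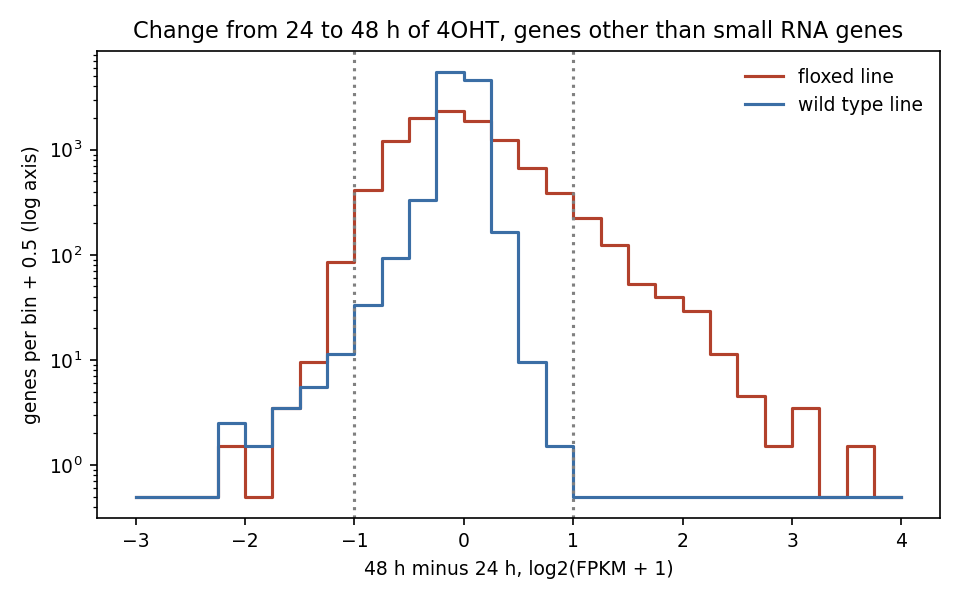
Number of genes (y, log axis) by change from 24 to 48 h on the log2(FPKM + 1) scale (x), small RNA genes left out, for floxed and wild type cells. The floxed distribution is the wider, with 485 genes at 1 or above and 97 at -1 or below, against 0 and 22 in wild type cells.

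Secondary and tertiary granule genes, which encode the proteins stored late in neutrophil maturation, had the highest median change of the lists with at least 5 expressed genes. The list names 27 genes, of which 26 were in the table and 23 were expressed. Of these, 14 rose, 0 fell and 21 lay above 0, with a median change of 1.17 in floxed cells and -0.35 in wild type cells. Over all genes outside the small RNAs, 4.53% rose and the median was -0.08. The summed level of the 23 genes went from 9192 to 27773 FPKM in floxed cells and from 10130 to 7750 FPKM in wild type cells.

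The calgranulin genes S100a8 and S100a9 carried most of that sum, and their products form the calprotectin dimer of neutrophil and monocyte cytoplasm. S100a8 (chr3:90668978-90670035, plus strand) went from 5757 to 16679 FPKM in floxed cells, 2.90-fold, and from 5445 to 4134 FPKM in wild type cells. After quantile normalization the change of S100a8 was 0.91, below the counted size. S100a9 (chr3:90692632-90695721, minus strand), its neighbour on chromosome 3, went from 1166 to 6618 FPKM, 5.68-fold, and from 2574 to 1993 FPKM in wild type cells. S100a9 was thus below the wild type line at 24 h and above it at 48 h. Mmp9 (chr2:164940780-164955850, plus strand), the gelatinase of tertiary granules, had the largest ratio of the list, from 4.12 to 46.7 FPKM or 11.3-fold, with 9.90 to 7.01 FPKM in wild type cells. It too crossed from below to above the wild type level.

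Lcn2, a siderophore-binding protein of secondary granules, went from 80.5 to 445 FPKM in floxed cells and from 117 to 94.7 FPKM in wild type cells. Chi3l1, a chitinase-like protein, rose 5.12-fold to 127 FPKM, and Slpi, an inhibitor of neutrophil elastase, rose 3.91-fold to 248 FPKM. Cebpe, the transcription factor needed for secondary granule formation, went from 148 to 313 FPKM. The late granule program was nevertheless uneven. Ltf (lactoferrin) reached 20.9 FPKM from 11.6, Ngp 831 from 491 and Camp (cathelicidin) 591 from 517, none of them 2-fold. Olfm4 went from 88.7 to 167 FPKM, also short of that size. Of the 14 genes that rose, 7 were below the wild type line at 24 h and 0 were below it at 48 h. Over all 10899 members these counts were 5458 and 5774. The floxed levels of the 14 genes also chose them, so nothing is read from these counts.

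The sequence just upstream is shown for 4 genes of the groups described here, chosen after their values and motif matches had been seen because each window is free of annotated exons and holds a match to a motif searched. S100a9 and Slpi are 2 of the granule genes that rose, Plk2 is the immediate early gene with the largest rise, and Aldh18a1 is an amino acid synthesis gene that fell. Each line gives the 250 bases before the start of the RefSeq gene (GRCm38.p6), 5′ to 3′ on the gene's own strand, with motif matches in capitals.
S100a9 promoter, chr3:90695722-90695971, minus strand: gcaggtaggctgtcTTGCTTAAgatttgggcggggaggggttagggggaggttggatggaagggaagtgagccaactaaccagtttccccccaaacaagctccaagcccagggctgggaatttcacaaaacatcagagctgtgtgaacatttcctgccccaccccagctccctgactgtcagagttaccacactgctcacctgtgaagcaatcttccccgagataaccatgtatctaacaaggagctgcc
Slpi promoter, chr2:164356508-164356757, minus strand: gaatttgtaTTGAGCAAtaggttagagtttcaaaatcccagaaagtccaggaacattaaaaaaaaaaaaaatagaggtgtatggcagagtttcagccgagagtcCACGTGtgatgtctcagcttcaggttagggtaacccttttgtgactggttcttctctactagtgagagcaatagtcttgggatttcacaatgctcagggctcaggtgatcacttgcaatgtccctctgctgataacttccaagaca
Plk2 promoter, chr13:110394794-110395043, plus strand: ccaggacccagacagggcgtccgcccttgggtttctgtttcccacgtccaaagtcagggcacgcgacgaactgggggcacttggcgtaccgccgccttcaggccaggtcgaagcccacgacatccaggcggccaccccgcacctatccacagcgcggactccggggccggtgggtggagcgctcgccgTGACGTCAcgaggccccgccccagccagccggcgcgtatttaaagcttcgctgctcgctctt
Aldh18a1 promoter, chr19:40588464-40588713, minus strand: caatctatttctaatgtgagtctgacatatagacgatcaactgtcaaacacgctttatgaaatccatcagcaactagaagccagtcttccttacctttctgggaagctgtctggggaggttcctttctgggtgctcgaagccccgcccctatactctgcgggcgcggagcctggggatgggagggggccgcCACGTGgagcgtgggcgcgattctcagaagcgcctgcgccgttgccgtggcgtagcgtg

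Both strands were searched for CACGTG (the E-box bound by Myc with Max), TGANTCA (the AP-1 site), TGACGTCA (the cyclic AMP response element), TGATGNAA (the core of the amino acid response element), TTGCNNAA (the C/EBP core), TATAAA (the box near many start sites), CCAAT (the site of the NF-Y factor) and the CArG box. The C/EBP core lies 236 to 229 bases before the start of S100a9, and 241 to 234 bases before that of Slpi, where it reads on the other strand. TGACGTCA lies 62 to 55 bases before the start of Plk2. CACGTG lies 59 to 54 bases before the start of Aldh18a1 and 146 to 141 bases before that of Slpi. No printed match overlaps another. Such matches are common in windows of this length, since 9.56% of the 32851 RefSeq windows hold the C/EBP core, 6.02% hold CACGTG and 1.55% hold TGACGTCA. A match describes the letters and says nothing of binding.

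The list of primary granule genes, expressed earlier in the promyelocyte, had a median on the other side of 0. It also holds genes whose products are not granule enzymes, among them Ms4a3, Igfbp4 and Serpinb1a below. Of 15 expressed, 2 rose, 4 fell and 10 lay below 0, with a median of -0.64 in floxed cells and 0.04 in wild type cells. Falling genes included Ms4a3, a membrane protein of granulocyte and monocyte progenitors, which went from 878 to 373 FPKM, and Igfbp4 (chr11:99041244-99054392, plus strand), a binding protein of insulin-like growth factors, which went from 149.9 to 49.2 FPKM. Serpinb1a, an inhibitor of neutrophil serine proteases, went from 219 to 102 FPKM. The fourth was the shared gene Prss57.

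The most abundant proteases of these granules did not reach 2-fold. Mpo (myeloperoxidase) went from 1986 to 1011 FPKM, a change of -0.97, and Ctsg from 540.2 to 381 FPKM. The shared genes Elane and Prtn3 went from 3067 to 1745 FPKM and from 2121 to 1362 FPKM. Against this direction, both lysozyme genes rose, Lyz2 (chr10:117277331-117282321, minus strand) from 916 to 3333 FPKM and Lyz1 from 43.6 to 170.2 FPKM. In wild type cells Lyz2 went from 1003 to 587 FPKM, so it was higher at the later time in one line and lower in the other. S100a8, S100a9 and Lyz2 together gained 18790 FPKM, out of 42632 FPKM gained by the 485 genes that rose.

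Genes of the mature neutrophil surface gave 10 rises and 0 falls among 23 expressed, with a median of 0.98 (-0.19 in wild type cells). Retnlg, a secreted protein of mature neutrophils, went from 3.69 to 11.8 FPKM and Trem1, an activating receptor, from 6.37 to 17.9 FPKM. The chemoattractant receptors Fpr2, C5ar1 and Cxcr2 rose to 27.3, 24.9 and 7.72 FPKM, from 10.9, 9.61 and 3.34. Itgam, the CD11b chain of the Mac-1 integrin, went from 47.3 to 100.1 FPKM. Csf3r, the receptor of granulocyte colony-stimulating factor, was at 3.58 FPKM at both times.

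Among monocyte and macrophage genes 12 of 36 rose and 0 fell, and 32 lay above 0 (median 0.71). In wild type cells 35 of the 36 lay below 0 and 7 fell, with a median of -0.55. The Fc receptor Fcgr4 rose 4.85-fold to 57.2 FPKM and the lipopolysaccharide co-receptor Cd14 rose 4.53-fold to 96.7 FPKM. Ctsd (chr7:142375911-142388038, minus strand), the lysosomal protease cathepsin D, went from 587 to 2102 FPKM, and from 583 to 511 FPKM in wild type cells. Mpeg1, a pore-forming protein of macrophages, went from 44.9 to 126 FPKM and the glutathione transferase Mgst1 from 148 to 601 FPKM. The receptor that defines the lineage did not follow, since Csf1r stood at 10.8 and 11.9 FPKM. Neither Ccr2 (25.9 to 33.6 FPKM), Irf8 (29.4 to 27.1 FPKM) nor F13a1 (70.9 to 39.04 FPKM) rose.

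Smaller groups of phagocyte genes lay mostly on the same side. All 6 subunits of the phagocyte NADPH oxidase lay above 0, of which Cybb, the catalytic gp91phox chain, rose from 61.95 to 156 FPKM while wild type cells went from 87.8 to 60.1 FPKM. Anxa1, which curbs neutrophil migration, was the only one of 8 annexins to rise, from 58.6 to 169.8 FPKM. Of 8 expressed clade B serpin and plasminogen activation genes 2 rose, 1 fell and 6 lay above 0. Serpinb2, an inhibitor of urokinase, rose 5.87-fold to 91.95 FPKM and Plaur, the urokinase receptor, rose 3.31-fold to 152 FPKM. The fall was that of Serpinb1a, given above. Among 21 integrin, selectin and adhesion genes 3 rose, Alcam and Itgam among them, 7 lay below 0 and the shared gene Itga4 fell.

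**Figure D2:**
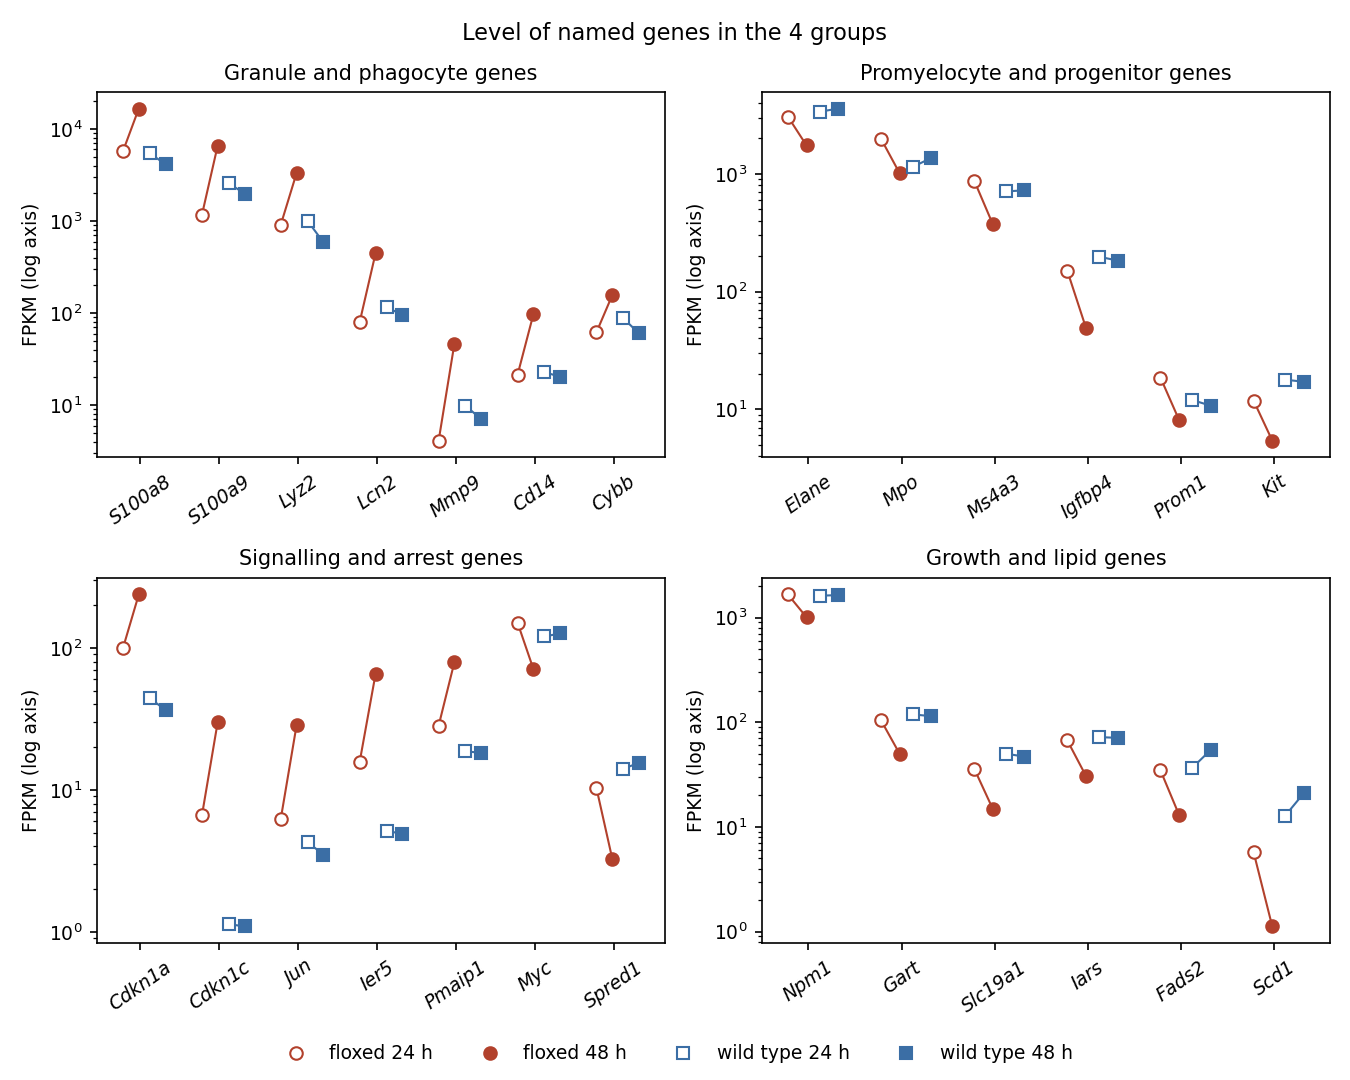
Levels in FPKM (log axis) at 24 h (open) and 48 h (filled) in floxed (circles) and wild type (squares) cells, 1 pooled value per group, for granule and phagocyte genes, progenitor genes, arrest and signalling genes, and growth and lipid genes. S100a9, Mmp9 and Lcn2 start below the wild type line and end above it, while Igfbp4, Prom1 and Scd1 end below it.

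In RNA from a whole culture, fewer cells of a type and less RNA per cell cannot be told apart, and this holds for each list above and below. Markers of other lineages were measured beside these lists. Only 2 of the 13 erythroid markers measured were expressed, the summed level of all 13 was 165 FPKM at 24 h and 140 FPKM at 48 h, nearly all of it from Tfrc (162 to 138 FPKM), the transferrin receptor that dividing cells of other types also express, and Car1, Hbb-b1 and Hbb-b2 were at 0 at both times. Lymphoid markers summed to 10.9 and 8.19 FPKM over 19 genes, with Cd3e, Rag1, Pax5 and Ebf1 at 0 at both times. Stromal and endothelial markers summed to 2.30 and 8.17 FPKM over 15 genes, most of it from Acta2, with Dcn, Lum and Col3a1 at 0.

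Megakaryocyte markers moved with the granule genes at a low level, from a sum of 4.40 to 17.8 FPKM over 11 genes, with Pf4 going from 2.17 to 10.8 FPKM. Their sum in wild type cells went from 3.803 to 2.69 FPKM. Mast cell and basophil markers summed to 1814 and 2772 FPKM, nearly all of it from Srgn, a proteoglycan gene that other myeloid cells also express, and Cpa3, Cma1, Fcer1a and Tpsb2 were at 0. Eosinophil markers summed to 277 FPKM at 24 h and 380 FPKM at 48 h in floxed cells, against 26.3 and 16.7 FPKM in wild type cells. Of 9 expressed eosinophil genes only the ribonuclease gene Ear11 rose, from 61.7 to 138 FPKM, while Epx and Prg2 went from 11.6 to 5.49 FPKM and from 92.6 to 66.6 FPKM. The part of these cell types in the rises was not tested.

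Genes that MLL-AF9 is known to hold active were counted in the same way. Of 11 expressed genes among the Hoxa cluster, Meis1 and Pbx3, 0 fell, and 2 rose, the shared genes Hoxa5 (12.99 to 39.1 FPKM) and Hoxa6 (8.45 to 26.5 FPKM). Over all genes outside the small RNAs 0.905% fell, so 0 falls among 11 genes is near that share. Hoxa9, the homeobox gene most tied to this leukaemia, went from 44.3 to 52.4 FPKM, Hoxa10 from 92.5 to 100.2 FPKM and its cofactor Meis1 from 7.88 to 8.51 FPKM. The list's median was 0.24, against 0.05 in wild type cells. Among 18 other regulators that MLL-AF9 targets 1 rose, 0 fell and 11 lay below 0. Their median of -0.06 changed sign with the scaling of the columns. The riser was Id2, an inhibitor of helix-loop-helix factors, which went from 12.96 to 35.3 FPKM. Mef2c, a factor of myeloid leukaemia stem cells, went from 6.99 to 3.86 FPKM without reaching 2-fold.

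Stem and progenitor genes gave 1 fall among 11 expressed, Prom1, the membrane protein CD133, which went from 18.6 to 8.11 FPKM. Their median of 0.02 also changed sign with the scaling. Kit, the stem cell factor receptor, lay just short of 2-fold, from 11.8 to 5.42 FPKM, and Myb, a progenitor factor, went from 96.8 to 83.3 FPKM. Of 28 lineage transcription factors 3 rose (Atf3, Id2 and Cebpe), 0 fell and 22 lay above 0 (median 0.45). Cebpa, which directs granulocyte commitment, went from 35.7 to 59.7 FPKM, below the counted size.

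Immediate early genes, which respond within minutes to growth factor and stress signals, were higher at the later time. Of 31 expressed, 9 rose, 1 fell and 24 lay above 0, with a median of 0.78 in floxed cells and -0.06 in wild type cells. Plk2, a stress-responsive kinase gene, rose 8.41-fold to 11.7 FPKM, and Atf3, a stress-induced repressor, rose 7.32-fold to 8.70 FPKM. The AP-1 subunit Jun (chr4:95049034-95052222, minus strand) went from 6.29 to 28.6 FPKM, and from 4.28 to 3.50 FPKM in wild type cells. Ier5 went from 15.8 to 65.3 FPKM, and the RNA-destabilizing factor Zfp36 from 37.4 to 85.9 FPKM. Fos, the usual partner of Jun, went from 9.51 to 15.1 FPKM without reaching the counted size, and Egr1 went from 3.19 to 2.09 FPKM. At 24 h 3 of the 31 genes were below the wild type line, against 5458 of all 10899 members. Membership needed 1 FPKM in a floxed column only, so genes low in wild type cells could enter through the floxed line. Egr1, for example, was at 0.172 FPKM in wild type cells at 24 h. Nothing is therefore read from this count.

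The list's 1 fall was Myc (chr15:61985391-61990374, plus strand), from 150.5 to 71.2 FPKM in floxed cells, a change of -1.07, against 120.3 to 126 FPKM in wild type cells. With the median ratio set to 1 its change was -0.97 and no longer reached 2-fold. Its partners moved less. Max went from 54.6 to 41.8 FPKM, while the antagonists Mxd4 and Mxd1 went from 19.2 to 38.1 FPKM and from 9.37 to 16.8 FPKM, just short of 2-fold.

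Outputs and inhibitors of ERK signalling were split. Of 13 expressed, 3 rose and 1 fell, and the sign of the median (0.18) depended on the setting. The targets Phlda1 and Ier3 rose 4.27-fold and 3.16-fold, to 14.4 and 43.9 FPKM, and Etv1 went from 0.600 to 2.86 FPKM. Spred1, an inhibitor of the RAS pathway, fell from 10.3 to 3.28 FPKM, a change of -1.40. Etv5 (4.0002 to 1.60 FPKM) and the inhibitor Spry1 (1.68 to 0.575 FPKM) were also lower without reaching the counted size, while Dusp6 went from 7.98 to 12.4 FPKM.

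NF-kappaB factors and feedback targets gave 5 rises and 0 falls among 21, with 19 above 0 and a median of 0.65. The inhibitor Nfkbia (shared) went from 25.8 to 67.8 FPKM and the chemokine genes Ccl4 and Ccl3 from 5.92 to 28.4 FPKM and from 49.4 to 107 FPKM. The factor gene Nfkb1 itself went from 36.5 to 31.6 FPKM. Of 14 expressed chemokine and receptor genes 6 rose, 0 fell and 13 lay above 0, with Ccr1 and the shared Ccl6 among those that rose. The 2 lists overlap, since Ccl3, Ccl4 and the shared Cxcl10 count among the rises of both. Cxcr4, the bone marrow retention receptor, went from 145 to 209 FPKM. Downstream of the interleukin 3 receptor, 17 of 21 JAK-STAT5, SOCS and PIM genes lay above 0 and 0 passed 2-fold in either direction. The receptor chain Csf2rb went from 64.6 to 109.9 FPKM, the feedback inhibitor Cish from 49.4 to 83.3 FPKM and the kinase Pim1 from 227 to 189.7 FPKM.

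Interferon response genes lay on opposite sides of 0 in the 2 lines. Among 28 expressed, 6 rose and 0 fell in floxed cells and 22 lay above 0, with a median of 0.47. In wild type cells all 28 lay below 0, 4 fell and the median was -0.53. Isg15, a ubiquitin-like modifier, went from 0.831 to 5.86 FPKM in floxed cells and from 7.67 to 2.02 FPKM in wild type cells. The master regulator Irf7 went from 0.543 to 2.21 FPKM in floxed cells and from 7.002 to 1.76 FPKM in wild type cells. Ifitm3, a membrane barrier to virus entry, was the most abundant of those that rose, from 166 to 435 FPKM, with 198 to 118 FPKM in wild type cells. At 24 h 26 of the 28 genes were below the wild type line, and at 48 h 11 were. Over all 10899 members these counts were 5458 and 5774. The floxed levels in such counts also enter the change, so nothing is read from them. Counts of rises in this list ranged from 2 to 10 over the settings tried, with the lowest count at a pseudocount of 5 FPKM.

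Antigen presentation genes gave 3 rises among 7 expressed, the co-stimulatory Cd80 (1.73 to 10.5 FPKM) and Cd86 (2.93 to 7.44 FPKM) and the shared invariant chain gene Cd74 (3.92 to 18.3 FPKM). The class II gene H2-Ab1 itself went from 1.13 to 0.480 FPKM.

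Inhibitors of the cyclin-dependent kinases had a median change of 1.11, with 4 of 7 rising. Cdkn1c (chr7:143458339-143461050, minus strand), the p57 inhibitor, went from 6.60 to 30.03 FPKM in floxed cells, 4.55-fold, against 1.14 to 1.09 FPKM in wild type cells. Cdkn1a (chr17:29090976-29100727, plus strand), the p21 inhibitor, went from 99.9 to 238 FPKM, against 44.2 to 36.5 FPKM in wild type cells. Both were above the wild type line at 24 h and drew further away. The INK4 genes Cdkn2c and Cdkn2d rose to 19.9 and 64.8 FPKM from 7.25 and 29.4. Cdkn1b, the p27 inhibitor, went from 11.003 to 21.99 FPKM, a change of 0.94, and Cdkn2a from 6.54 to 8.07 FPKM.

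Targets of p53 gave 8 rises and 0 falls among 32, with 21 above 0 and a median of 0.23 (-0.04 in wild type cells). Besides Cdkn1a and Plk2 they included Trp53inp1, which promotes autophagy and cell death and rose 5.60-fold to 29.4 FPKM, the mTORC1 inhibitor Ddit4 (17.9 to 57.97 FPKM) and Pmaip1 (28.3 to 79.6 FPKM), which encodes the killer protein NOXA. The canonical targets Mdm2 (26.4 to 38.9 FPKM), Ccng1 (65.9 to 87.1 FPKM) and Bax (158 to 228 FPKM) did not reach 2-fold. Trp53 itself went from 89.98 to 58.7 FPKM. It was 1 of 11 list members below 0, with Sesn1 (13.2 to 7.72 FPKM) and Xpc (27.6 to 19.1 FPKM). The rises include the shared gene Gadd45a, and Cdkn1a, Plk2, Ddit4, Pmaip1 and Cd80 count among the rises of other lists too. Among 13 BCL2 family genes 2 rose, Pmaip1 and Bmf, which went from 0.946 to 7.57 FPKM, and 10 lay above 0. These hold killers and protectors alike, since Bcl2l11, which encodes BIM, went from 7.30 to 13.1 FPKM and the protector Mcl1 from 88.03 to 144 FPKM.

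Among genes that run the cell cycle, counts past 2-fold were near the shares of all genes. Of 22 genes for G1 cyclins, their kinases, pocket proteins and E2F factors 1 rose, E2f2 (16.2 to 63.1 FPKM), and 0 fell, while the G1 kinase Cdk4 went from 304 to 178 FPKM. DNA replication genes were lower in a narrow band, with 41 of 44 below 0, a median of -0.37 and 0 past 2-fold. The helicase subunit Mcm6 went from 149 to 99.9 FPKM, the polymerase subunit Pole from 9.83 to 4.95 FPKM and the ribonucleotide reductase subunit Rrm2 from 147 to 93.5 FPKM, whereas the sliding clamp Pcna went from 545 to 674 FPKM. Mitosis genes had a median of -0.15, with 30 of 44 below 0, 0 falls and 1 rise, the shared phosphatase gene Cdc25b (6.22 to 14.5 FPKM), and the proliferation marker Mki67 stood at 48.5 and 51.4 FPKM. Over all genes outside the small RNAs 4.53% rose and 0.905% fell. The 1 rise among 22 G1 genes or 44 mitosis genes, and 0 falls among 44 replication genes, are near those shares.

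Growth genes were shifted as lists, with few members reaching 2-fold. All 55 expressed Myc target genes lay below 0, in each of the 12 settings tried, with a median of -0.56 in floxed cells and -0.05 in wild type cells. Yet only 1 of them fell 2-fold, Slc19a1, the folate carrier, from 36.1 to 14.8 FPKM. Npm1, an abundant nucleolar chaperone, went from 1659.9 to 1006 FPKM and the nucleolar protein Ncl (shared) from 271 to 171 FPKM. The pyrimidine enzyme Cad went from 39.2 to 19.7 FPKM, just short of 2-fold. Below the wild type line were 32 of the 55 genes at 24 h and 52 at 48 h. Over all 10899 members 56.5% had a change below 0, and 5458 and 5774 were below the wild type line at these times. The floxed levels in these counts also enter the change, so nothing is read from them.

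Ribosome biogenesis genes had the same shape, with 55 of 59 below 0, a median of -0.44 and 0 past 2-fold. Polr1a, the largest subunit of RNA polymerase I, went from 20.9 to 10.7 FPKM and Fbl, the nucleolar methyltransferase fibrillarin, from 257 to 177 FPKM. Aminoacyl-tRNA synthetases, which load amino acids on transfer RNAs, lay below 0 in 32 of 35 cases (median -0.50). Iars and Eprs fell, from 66.9 to 30.7 FPKM and from 92.9 to 45.6 FPKM, while the mitochondrial enzyme Lars2 went from 380.1 to 590.2 FPKM. Purine, pyrimidine and folate enzymes had a median of -0.63, with 29 of 31 below 0 and 3 falls. Gart (chr16:91621186-91646952, minus strand), which catalyses several steps of purine synthesis, went from 104 to 49.8 FPKM, and Impdh1, on the guanine branch, from 13.4 to 5.43 FPKM. With the median ratio set to 1, Eprs (-0.92) and Gart (-0.95) no longer reached 2-fold.

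The ribosome itself did not share this shift. Of 79 cytosolic ribosomal protein genes 42 lay above 0, 0 passed 2-fold, and the median of 0.02 changed sign with the scaling. Of these 35 share their locus entry, so single values are uncertain. Respiratory chain and ATP synthase genes had a median of -0.06, whose sign also depended on the scaling, with 35 of 77 above 0.

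**Figure D3:**
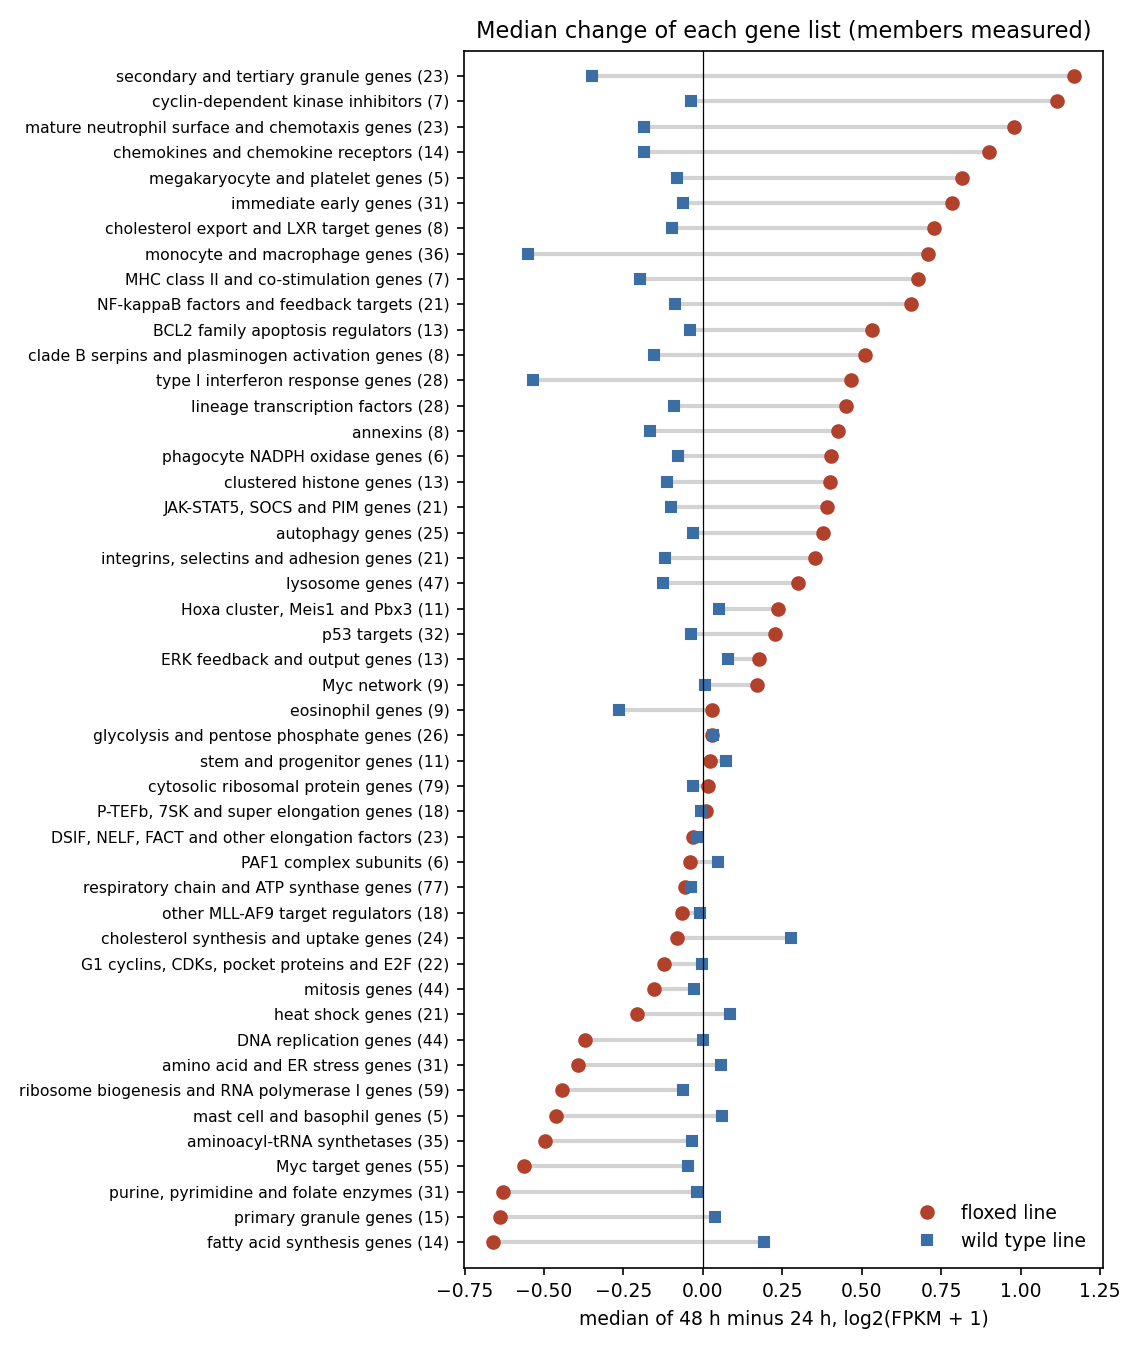
Median change from 24 to 48 h on the log2(FPKM + 1) scale (x) for each gene list (y), in floxed and wild type cells. Secondary and tertiary granule genes (1.17) stand highest in floxed cells, fatty acid synthesis (-0.66), primary granule (-0.64) and nucleotide synthesis genes (-0.63) lowest, while the lowest wild type medians are those of the monocyte (-0.55) and interferon (-0.53) lists.

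Fatty acid synthesis genes were mostly lower in floxed cells. Among 14 expressed fatty acid synthesis genes 2 fell, 1 rose and 11 lay below 0, with a median of -0.66, against 0.19 in wild type cells. Scd1 (chr19:44394455-44407879, minus strand), the desaturase that makes oleate, went from 5.72 to 1.12 FPKM, 5.11-fold lower, while wild type cells went from 12.8 to 21.1 FPKM. Fads2, a desaturase of polyunsaturated fatty acids, went from 34.7 to 12.99 FPKM in floxed and from 36.6 to 54.5 FPKM in wild type cells. Acaca, which makes malonyl-CoA, went from 20.04 to 10.05 FPKM and Fasn from 116 to 78.9 FPKM, neither of them 2-fold. The shared malic enzyme gene Me1 rose, from 7.82 to 19.3 FPKM.

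Cholesterol export and LXR target genes gave 3 rises and 0 falls among 8 expressed (median 0.73). Plin2 (chr4:86648386-86670060, minus strand), which coats lipid droplets, went from 116 to 465 FPKM, against 124 to 113 FPKM in wild type cells, and the scavenger receptor Cd36 went from 0.212 to 1.52 FPKM. The apolipoprotein Apoe went from 3.62 to 8.39 FPKM. Cholesterol synthesis genes had a median of -0.08 that changed sign with the scaling, while all 24 lay above 0 in wild type cells (median 0.28). Dhcr7, the last enzyme of one branch, went from 43.8 to 24.7 FPKM in floxed cells and from 42.8 to 55.3 FPKM in wild type cells.

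Amino acid and stress genes were mostly lower, with few past 2-fold. Cth, which makes cysteine, fell from 33.001 to 13.3 FPKM, and Aldh18a1, the proline synthesis enzyme with the E-box shown above, fell from 51.9 to 24.9 FPKM, though its change was -0.94 with the median ratio set to 1. The serine enzymes Phgdh and Psat1 went from 157 to 79.6 FPKM and from 292 to 165 FPKM, and Atf4, the factor that drives many of these genes, from 304 to 201 FPKM. The stress genes Atf3 and Ddit4 rose, as given above, whereas the ER chaperone Hspa5 went from 941 to 704 FPKM. Over the 31 expressed genes 2 rose, 2 fell and 21 lay below 0, with a median of -0.39.

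Glycolysis and pentose phosphate genes had a median of 0.03, whose sign depended on the scaling, with 2 rises among 26. Ldhb, a lactate dehydrogenase subunit, rose 8.45-fold to 10.4 FPKM and the glucose transporter Slc2a3 rose 2.34-fold to 30.3 FPKM. The far more abundant Ldha went from 1373 to 1089.6 FPKM. None of 21 heat shock genes passed 2-fold, and 14 lay below 0.

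Degradation genes were mostly higher. Of 47 lysosome genes 7 rose, 0 fell and 34 lay above 0 (median 0.30), among them Ctsd, the protease Ctsl (49.9 to 107 FPKM) and Atp6ap1, an accessory subunit of the proton pump (129 to 278 FPKM). The membrane protein Lamp1 went from 432 to 566 FPKM, below the counted size. Of 25 autophagy genes 4 rose, 0 fell and 21 lay above 0 (median 0.38). These were Map1lc3a (9.39 to 32.01 FPKM), Map1lc3b (108 to 263 FPKM) and Gabarap (229 to 466 FPKM), which coat autophagosomes, and the initiating kinase Ulk1 (8.77 to 21.5 FPKM). Both shares of rises stood above the 4.53% of all genes, while wild type medians were -0.12 and -0.03.

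Among genes of the transcription machinery that Cdc73 belongs to, counts past 2-fold were near the shares of all genes. Outside the small RNAs those shares were 4.53% rising and 0.905% falling. The 6 genes of the PAF1 complex gave 0 changes past 2-fold, and their median of -0.04 changed sign with the scaling. Paf1, the subunit that names the complex, went from 49.7 to 64.5 FPKM. Of 18 genes for the elongation kinase P-TEFb, its 7SK inhibitor and the super elongation complex 1 rose, Hexim1 (chr11:103116231-103119725, plus strand), which holds P-TEFb inactive, from 72.2 to 147 FPKM against 26.97 to 26.9 FPKM in wild type cells. Hexim1 has a single exon, and its change of 1.01 was 0.92 with equal sums, below the counted size. Among 23 other elongation factors 1 rose, Supt4a, a subunit of DSIF, from 96.8 to 215 FPKM. The medians of both lists, 0.01 and -0.03, changed sign with the scaling. Clustered histone genes, most of whose transcripts carry no poly(A) tail, gave 2 rises and 1 fall among 13 expressed of 28 in the table.

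Ranked over all unshared genes outside the small RNAs, the largest rise by ratio among those at 1 FPKM or more was that of Marcksl1 (chr4:129513581-129515985, plus strand), a regulator of the actin cortex, from 48.1 to 578 FPKM, 12.03-fold. Wild type cells went from 32.3 to 34.4 FPKM. Mmp9, given above, was also among the largest. Eno3, an enolase, rose 6.61-fold to 17.8 FPKM, Grina, a membrane protein of the BAX inhibitor family, 5.51-fold to 253 FPKM, and S100a6 5.42-fold to 129 FPKM. Ccdc80, Retn and Bcl6 were below 1 FPKM at 24 h, at 0.240, 0.435 and 0.266, and reached 8.67, 8.10 and 5.21 FPKM. Bcl6 encodes a transcriptional repressor. Among shared genes the arginase Arg2 (0.271 to 9.99 FPKM), the ribonuclease Ang (1.25 to 13.3 FPKM) and Amica1 (0.949 to 10.9 FPKM) rose most.

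Decreases were smaller in size. After Scd1, Igfbp4, Spred1 and Fads2, they were led by the transporter Slco3a1 (7.33 to 2.27 FPKM), the receptor Gpr128 (4.77 to 1.37 FPKM), the peptide hormone Adm2 (4.70 to 1.36 FPKM) and the metallothionein Mt2 (38.97 to 15.6 FPKM). Pck2, the mitochondrial phosphoenolpyruvate carboxykinase, fell from 19.4 to 7.84 FPKM, the transcription cofactor Cited4 from 27.5 to 11.4 FPKM and the arginine transporter Slc7a1 from 38.1 to 16.2 FPKM. The shared genes Amd1 (12.4 to 2.03 FPKM), Pet117 (11.8 to 3.08 FPKM) and Ass1 (4.44 to 1.07 FPKM) also fell, and Amd1 did so in wild type cells as well (10.6 to 1.88 FPKM).

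S100a8 was the most abundant transcript at 48 h, at 16679 FPKM. It was followed by the ferritin light chain Ftl1 (8784), the actin-binding Tmsb4x (6618), S100a9 (6618), the ribosomal genes Rplp1, Rpl41, Rps20 and Rps29, the elongation factor Eef1a1 (4159.9) and the peroxidase Gpx1 (3449). The 10 most abundant genes at each time held 7.05% of the summed FPKM at 24 h and 9.31% at 48 h. At the threshold that chose the members, Gm10069 (0.9996 FPKM at its higher time), Zmat1 (0.999) and Cbr2 (0.998) lay just outside, and P2ry6, C920021L13Rik and Tbc1d12 (1.00 to 1.01) just inside.

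Of all 10718 genes outside the small RNAs, 0 rose in the wild type line and 22 fell (0.205%). The 485 that rose in floxed cells could therefore hold no rise there. They had a median change of -0.07 in wild type cells, against -0.01 over all these genes, and 8 fell. Of the 485, 1 had a change above 0.5 in wild type cells, the shared gene Sap25. It went from 1.56 to 4.51 FPKM in floxed and from 0.211 to 0.928 FPKM in wild type cells. Smaller changes in the same direction were those of Narf, which went from 14.9 to 32.5 FPKM in floxed and from 11.9 to 14.99 FPKM in wild type cells, and Ltb, from 5.96 to 16.7 FPKM and from 0.977 to 1.41 FPKM. In the opposite direction, the acute phase gene Saa3 went from 5.12 to 18.6 FPKM in floxed and from 11.8 to 2.09 FPKM in wild type cells, and Ifi27l2a from 5.49 to 12.99 FPKM and from 39.99 to 10.9 FPKM. Of the 485, 151 were below the wild type line at 24 h and 5 at 48 h. Of the 97 genes that fell, 74 were below it at 24 h and 90 at 48 h, with a median change of 0.01 in wild type cells. Over all 10899 members 5458 were below it at 24 h and 5774 at 48 h. The floxed levels in these counts are also those that chose the genes, so nothing is read from them. The 2 lines share no control library in this comparison, and the difference between them was not tested.

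Gene span, which the choice of members did not use, went with the change. Span is the distance from the first to the last annotated base, taken from GENCODE M21, and the 9769 protein-coding members were sorted by it into 10 groups of nearly equal size. In the group of shortest genes, of 381 to 4619 bases, the median change was 0.09 and 10.3% of genes rose. In the group of longest genes, from 104646 bases upward, the median was -0.15 and 2.15% rose. The shares that fell were 1.02% and 0.819%. Wild type medians ran from -0.03 to -0.00 over the same groups.

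The coding genes that rose had a median span of 11946 bases, those that fell 28746 bases, and all coding members 22831 bases. S100a8, S100a9, Marcksl1, Cdkn1c and Hexim1 are all short genes, as their coordinates show. Long genes rose as well, among them Plek (81176 bases) and Tsc22d1 (92805 bases). Transcript GC content went with the change as well, with a median of -0.19 in the lowest of 6 groups and 0.09 in the highest, and 2.27% and 6.20% of genes rising. When genes were first split into 3 groups by GC content and each of these into 5 by span, the shortest still held more rises than the longest, 6.44% against 1.84% at low GC, 8.14% against 2.30% in the middle and 9.66% against 3.99% at high GC. Span and GC content are linked to each other across genes, and genes are not independent replicates, so these shares are given with no test.

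**Figure D4:**
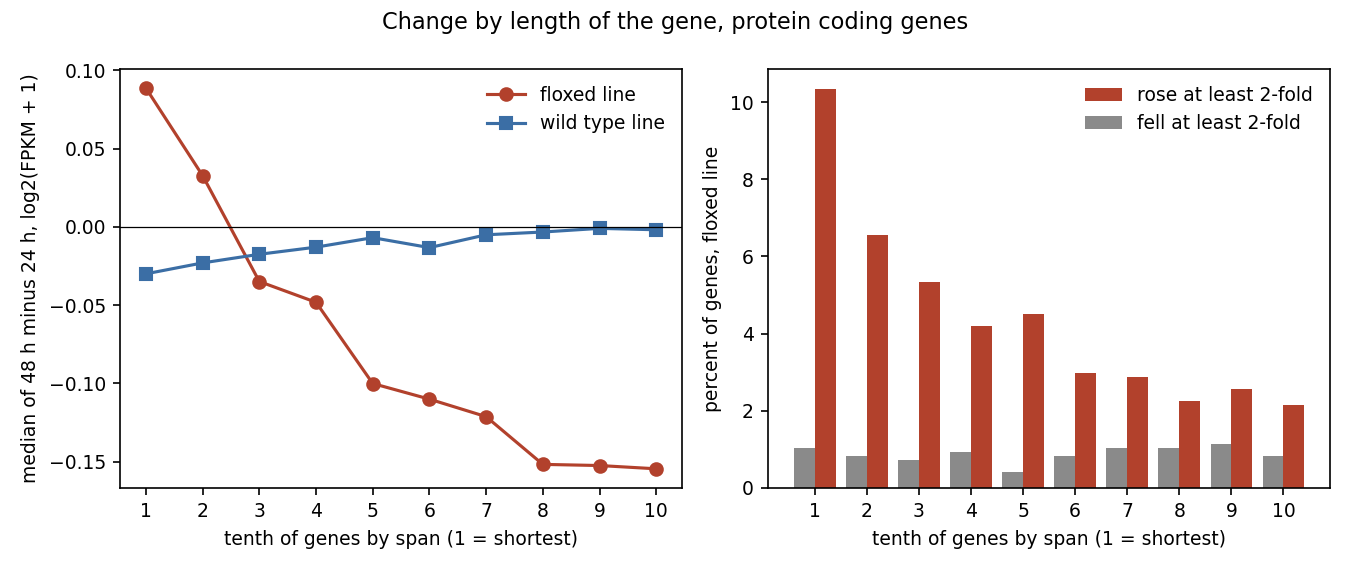
Change from 24 to 48 h in 10 groups of genes by span, shortest at left: median change on the log2(FPKM + 1) scale in floxed and wild type cells, and the percent of genes that rose or fell 2-fold in floxed cells. The percent that rose goes from 10.3% in the shortest group to 2.15% in the longest, while the percent that fell stays between 0.410% and 1.13%.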

How the data were processed

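Per the labels' protocols, a Qiagen RNeasy kit gave the poly(A) RNA of 8 libraries, which were sequenced on an Illumina HiSeq instrument. Bowtie2, Cufflinks 2.1, Cuffdiff and the build mm10 are named in the submitters' processing notes, with no role or order. The sources used here do not give the annotation or how strand and trimming were handled. A single FPKM value stands for each gene and group in the table the authors deposited, per the file headers, so duplicates were combined before deposit. The authors' deposited q-values compare floxed with wild type cells at each time, not the 2 times, and were not used. Whether both times were scaled in 1 run is not given.

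Changes were computed as log2((48 h + 1)/(24 h + 1)) of FPKM, with a pseudocount of 1 FPKM, a minimum of 1 FPKM in either floxed column and 2-fold on that scale as the counted size. limma had been planned only for values per library and could not be run. Depth per library is unknown, so no interval is given. Gene spans, exons and GC content came from GENCODE M21 (GRCm38, the assembly of mm10), and 10231 members matched by symbol. Promoter windows came from RefSeq GRCm38.p6, and motif shares over the genes that rose were not computed because only 368 of 485 had a window. The members, gene lists and named genes were chosen with earlier results of these data known. Named were the 15 largest unshared changes each way, up to 3 shared ones, Cdc73, the 10 highest genes, genes nearest the threshold, genes that also moved in wild type cells and, of each list, the largest changes, the most abundant and the contrary members. Small RNA genes were left out of these ranks after their values had been seen, and other well-known list members were added after theirs had been seen. A few genes that the rule names are not reported here.
Alternatives were other pseudocounts, filters, column scalings and sets of genes. The calculation was tested on simulated data, with Python 3.11.15, numpy 2.4.6, pandas 2.3.3 and matplotlib 3.10.9.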

Additional observations from a re-analysis of the deposited data

How the results depend on the processing

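Counts of 2-fold changes depended most on the pseudocount, since many members are low. In floxed cells 816 genes rose and 291 fell with a pseudocount of 0.1 FPKM, and 251 and 68 with 5 FPKM, against 536 and 153 as reported. Among genes at 1 FPKM or more at both times 391 rose and 109 fell. Falls numbered 93 with the median ratio set to 1, 94 without shared locus entries and 97 without small RNA genes. In wild type cells the 28 rises became 6 without shared entries, 0 without small RNA genes and 16 among genes at 1 FPKM at both times, and the 45 falls became 79 with a pseudocount of 0.1 FPKM, 20 without shared entries and 22 without small RNA genes. The median floxed change ran from -0.158 with equal sums to 0.00922 with the median ratio set to 1, so its sign depends on the scaling. Of 47 lists with at least 3 expressed genes, 35 kept the sign of their median over 11 alternatives and 12 did not. The difference in median between the groups of shortest and longest genes ran from 0.159 to 0.280 over the same alternatives (0.243 as reported). Of the 127 genes named here that passed 2-fold, 91 still did with a pseudocount of 5 FPKM, 114 with equal sums, 119 with the median ratio set to 1 and 119 after quantile normalization, and none changed direction. Those below it under a scaling of the columns lay near the limit, at changes of 0.91 to 1.00 in size, and included S100a8, Hexim1, Cebpe, Itgam, Cxcr2, Apoe, Cd36, Irf7, Gabarap and Ctsl among the rises and Myc, Gart, Eprs, Aldh18a1, Serpinb1a, Prss57, Itga4 and Fancd2 among the falls. The alternatives without small RNA genes, with 1 FPKM at both times and for gene span were chosen after seeing the data. No paired analysis was possible because the deposited table has 1 value per group, and leaving out each replicate in turn was not run for the same reason. Depth limits genes near 1 FPKM most, and no error can be given for any value.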

Other observations

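Several gene families were grouped by their symbols after the values had been seen, and some of their members are also in the lists above. Their counts are given as description beside the 4.53% of genes that rose and the 0.905% that fell. Among 11 expressed S100 genes, which encode small calcium-binding proteins, 6 rose and 0 fell (median 1.22). They included S100a11, from 890.4 to 2390 FPKM, and S100a4, from 26.9 to 64.8 FPKM, besides the calgranulins. Of 8 stefin genes, whose products inhibit cysteine proteases, 3 rose. Stfa3 went from 340.1 to 1577 FPKM, Stfa2l1 from 172 to 432 FPKM and Stfa2 from 325 to 662 FPKM. Among 11 tubulin genes 3 rose, with Tuba1a going from 17.6 to 78.3 FPKM. Of 17 actin, thymosin and Arp2/3 genes 2 rose, Tmsb10 (224 to 605 FPKM) and Arpc5 (241 to 493 FPKM). The cytokine receptor genes Il13ra1 and Il17ra rose as well, to 33.6 and 47.1 FPKM from 7.34 and 18.999.

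Other families were lower without many members reaching 2-fold. All 10 expressed Fanconi anaemia genes, which act in the repair of DNA crosslinks, lay below 0 (median -0.45), and Fancd2 fell from 8.25 to 3.40 FPKM. All 8 subunits of the cytosolic chaperonin CCT lay below 0 (median -0.38), as did 19 of 23 nucleoporins (median -0.43) and 18 of 22 genes of mitochondrial protein import (median -0.39). Mitochondrial ribosomal protein genes had a median of -0.31, with 62 of 76 below 0, whereas the median of the cytosolic ones was 0.02 and changed sign with the scaling. Genes named for the proteasome had a median of -0.07, with 1 fall among 48, that of Psmg1 (57.2 to 27.0 FPKM). Vacuolar ATPase subunits, which acidify lysosomes, lay above 0 in 16 of 19 cases (median 0.40).

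By annotated type, 13 of 69 expressed long intergenic noncoding RNA genes rose and 2 fell, with a median of 0.14. Of 9769 protein-coding genes 427 rose and 85 fell, with a median of -0.08.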
